A study of Homo sapiens with 18 samples.

Results

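The comparison set Raji cells harvested at 48 h (3 arrays) against Raji cells harvested at 24 h (3 arrays), the last interval of a time course of 18 arrays at 0, 4, 8, 12, 24 and 48 h. Raji is an established B-cell line from a Burkitt lymphoma that carries Epstein-Barr virus. Per the labels, the cells of both times had phorbol ester (0.05 µM) together with sodium n-butyrate (3 mM) as inducers, and maslinic acid, a plant triterpene, at 19 µM. The 0 h cells carry the same 3 compounds in their labels. Arrays of untreated cells at 24 h or 48 h were not analysed here, so the compounds and the time in culture cannot be told apart. All 6 arrays were taken by their titles, and each of 18417 measured genes was represented by its probe set of highest mean. Levels are log2 intensities, in which 1 unit is a 2-fold change. Changed, risen or fallen here means an adjusted p under 0.05 in limma's moderated test, fitted to all 18 arrays with Benjamini-Hochberg adjustment over all genes. The cell line is the only source named in the labels, which call the 3 arrays of a time biological replicates.

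To divide, a cell copies its DNA in S phase, condenses its chromosomes and separates them on a spindle in mitosis. Cyclin B with its partner kinase CDK1 starts mitosis, the Aurora and Polo-like kinases build the spindle, and the checkpoint kinases delay separation until each kinetochore is attached. Transcription of this mitotic group peaks late in the cycle, when B-MYB and FOXM1 activate it, and the DREAM complex represses it in resting cells through a promoter element called CHR, often near CCAAT boxes that bind NF-Y. Butyrate blocks histone deacetylases, phorbol ester turns on protein kinase C, and both are used to wake Epstein-Barr virus from latency.

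Between 24 h and 48 h the most numerous change was a further loss of cell division transcripts. Cyclin B1 (CCNB1) fell 5.13-fold, the spindle gene DLGAP5 4.35-fold and Aurora kinase A (AURKA) 3.41-fold at 48 h relative to 24 h. Of 61 genes that fell, 35 belonged to 6 lists of cell division genes. Only 13 genes rose, among them the collagenase MMP13 (5.2-fold) and BCL2L11, which encodes the pro-apoptotic protein BIM (2.56-fold). In bulk samples, fewer cells of a type and less RNA per cell cannot be told apart.

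The arrays were alike in scale. The medians of the 6 arrays lay between 4.05 and 4.25 and their interquartile ranges between 2.76 and 3.16 log2 units, and 0 pairs of arrays in the series were identical. Replicate 3 stood apart at both times in the interferon-stimulated genes, whose list mean was 7.76, 7.77 and 6.72 at 48 h, against 7.48, 7.30 and 5.81 at 24 h. B cell markers were present at both times. MS4A1 (CD20) averaged 9.68 ± 0.46 at 48 h and 9.16 ± 0.40 at 24 h, and PAX5, the B-lineage transcription factor, averaged 6.40 ± 0.13 at 48 h and 6.42 ± 0.45 at 24 h (SD, n = 3 each). CD22 averaged 7.71 ± 0.86 at 48 h and 7.29 ± 0.34 at 24 h, CD79A 5.48 ± 0.64 at 48 h and 5.997 ± 0.55 at 24 h and CD79B 5.31 ± 0.37 at 48 h and 5.21 ± 0.19 at 24 h. None of these 5 markers differed past the test between 48 h and 24 h. Measured markers of other cell types were 20 of T and NK cells, 18 of monocytes and macrophages and 12 of epithelium. There were also 15 of fibroblasts and endothelium and 10 of erythroid cells and megakaryocytes. Of all these, 0 changed (0.402% of all genes did). The 5 list means lay between 3.45 and 4.57 on all 6 arrays, near the array medians.

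Promoters of 5 of the division genes with the largest falls are shown because late falls can be read against the CHR and CCAAT letters described above. Each run covers 130 bases before to 25 bases after the transcription start in RefSeq (GRCh38.p14), 5′ to 3′ on the gene's strand. Capitals mark CCAAT boxes, the CHR form TTTGAA, its variant TTCGAA and its variant TTTAAA. Each was searched on both strands, and TTTGAA reads as TTCAAA on the opposite one.
CCNB1, chr5:69167020-69167174, plus strand: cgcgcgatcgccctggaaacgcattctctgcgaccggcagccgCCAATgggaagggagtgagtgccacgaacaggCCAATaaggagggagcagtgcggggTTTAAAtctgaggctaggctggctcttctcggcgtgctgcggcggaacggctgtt
DLGAP5, chr14:55191561-55191715, minus strand: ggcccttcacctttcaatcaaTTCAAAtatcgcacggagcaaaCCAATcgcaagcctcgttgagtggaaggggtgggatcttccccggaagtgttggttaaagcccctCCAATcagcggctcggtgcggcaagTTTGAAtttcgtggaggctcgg
KIF14, chr1:200620727-200620881, minus strand: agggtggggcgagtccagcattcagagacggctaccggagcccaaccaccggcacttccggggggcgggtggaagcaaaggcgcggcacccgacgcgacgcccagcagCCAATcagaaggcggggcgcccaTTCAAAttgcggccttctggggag
CENPW, chr6:126339985-126340139, plus strand: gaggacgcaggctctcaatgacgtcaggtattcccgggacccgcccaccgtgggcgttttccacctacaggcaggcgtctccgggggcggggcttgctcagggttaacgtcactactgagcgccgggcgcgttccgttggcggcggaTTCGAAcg
CCNB2, chr15:59105016-59105170, plus strand: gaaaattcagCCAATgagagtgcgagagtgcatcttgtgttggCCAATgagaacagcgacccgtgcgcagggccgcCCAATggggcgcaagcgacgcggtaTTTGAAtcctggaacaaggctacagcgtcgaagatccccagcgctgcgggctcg
In CCNB1 the CHR form began 30 bases before the start, and in CCNB2 29 bases before it. Both also held CCAAT boxes spaced along the same stretch, at 87 and 55 bases before the start in CCNB1 and at 120, 87 and 54 bases before it in CCNB2. A match is a description of letters, not a bound site.

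Over the whole 300-base windows (250 bases before to 50 after the start), 51 of the 61 genes that fell had a RefSeq entry, with 67 windows. A CHR form lay in 37 of these windows (55.2%), against 25.1% of all 35116 windows and 21.1% of the windows of measured genes. CCAAT also lay in 37 of 67 (55.2%), against 34.6% of all windows. Within the division lists it lay in 25 of 38 windows of genes that fell (65.8%) and in 98 of 178 of the uncalled members (55.1%). Falls outside the lists had it in 12 of 29 (41.4%) and the rises in 6 of 10, so its excess over all windows was not particular to the falls. A CHR form and CCAAT together occurred in 23 of the 67 windows (34.3%), against 9.7% of all windows. Within the division lists, a CHR form was present in 25 of 38 windows of genes that fell (65.8%) and in 67 of 178 windows of the uncalled members (37.6%). For the falls outside the lists the share was 12 of 29 (41.4%), and for the rises 3 of 10. Genes with several starts contribute several overlapping windows, so the windows are not independent.

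At 48 h against 24 h, 74 of 18417 genes passed limma's test (0.402%), 61 lower (0.331%) and 13 higher (0.0706%). Of these, 56 (0.304% of genes) changed at least 2-fold, 46 falls (0.25%) and 10 rises (0.0543%). At an unadjusted p under 0.05, 978 genes were lower and 767 higher. In each of the 74 the 3 arrays of 48 h lay all on 1 side of the 3 arrays of 24 h, as they did in 2570 genes (14%) in all, 1120 lower (6.08%) and 1450 higher (7.87%). The median difference was -1.26 for the 61 falls and 1.16 for the 13 rises, against 0.03 over all genes. Left out in turn, replicates 1 and 2 of 48 h gave counts of 39 and 45 in place of 74, replicate 3 of 48 h gave 258, and replicates 1 and 2 of 24 h gave 37 and 35. Limma called 10 genes when fitted to those 6 arrays only, 36 with all probe sets tested, and 206 with array weights.

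**Figure D1:**
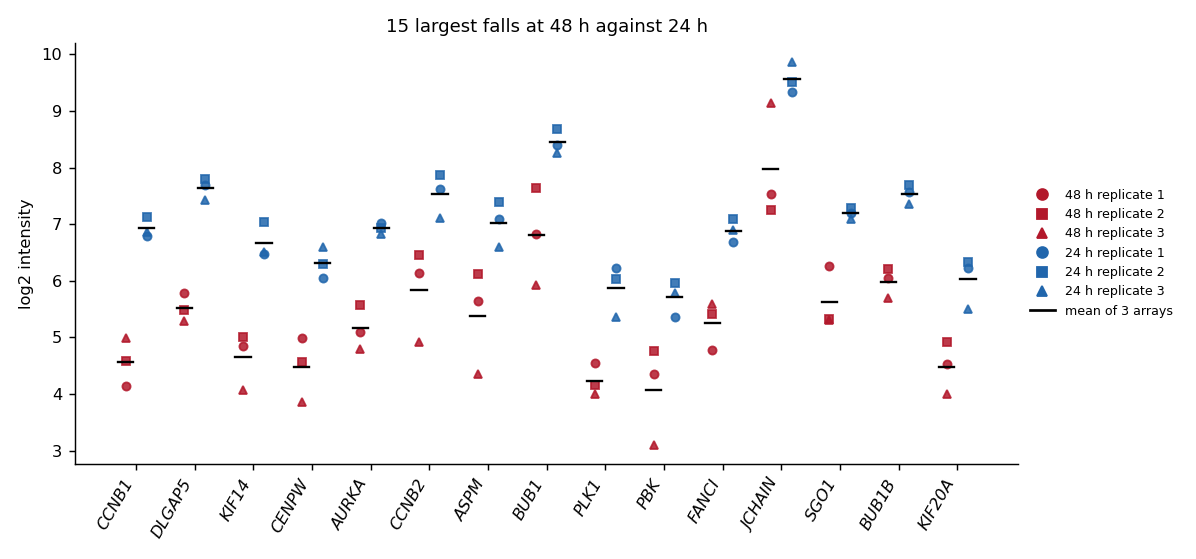
Log2 intensity (y axis) of the 15 genes with the largest falls (x axis), in the arrays of 48 h (red) and 24 h (blue), with a marker shape per replicate and a bar at the mean of 3 arrays. In each gene the 3 points of 48 h lie below the 3 of 24 h, as the rule that chose the genes required. The gap is widest for CCNB1 (a mean difference of -2.36), while JCHAIN has 1 array of 48 h at 9.14, close to its 24 h arrays.

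The mitotic cyclins, kinases and checkpoint genes lost 12 of 39 measured members at 48 h against 24 h (30.8%, against 0.331% of all genes), with a list median of -0.74. CCNB1, the cyclin whose complex with CDK1 starts mitosis, had 4.14, 4.58 and 4.98 at 48 h, against 6.79, 7.12 and 6.87 at 24 h. In limma it fell by 2.36 log2 units (SE 0.21, adjusted p = 1.38e-05), and its highest array of 48 h stood well below its lowest of 24 h. CCNB2, the second B-type mitotic cyclin, had 6.14, 6.45 and 4.93 at 48 h, against 7.63, 7.86 and 7.12 at 24 h, a difference of -1.70 (SE 0.35, adjusted p = 0.0404). Replicate 3 gave its lowest value at both times, and 6 of 15 alternatives ended its call.

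AURKA, the kinase that matures centrosomes and builds spindle poles, had 5.10, 5.57 and 4.80 at 48 h, against 7.02, 6.94 and 6.83 at 24 h. The groups were clear of each other by over 1 unit, and the difference was -1.77 (SE 0.21, adjusted p = 0.000459). PLK1, the Polo-like kinase that acts from mitotic entry to cytokinesis, had 4.56, 4.15 and 4.005 at 48 h, against 6.23, 6.03 and 5.36 at 24 h, a difference of -1.64 (SE 0.24, adjusted p = 0.00243). PBK, a kinase active in mitosis, had 4.35, 4.76 and 3.10 at 48 h, against 5.37, 5.97 and 5.79 at 24 h, and fell by 1.64 with its lowest array in replicate 3 of 48 h.

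The spindle checkpoint kinases moved alike. BUB1, which recruits checkpoint proteins to kinetochores, had 6.83, 7.65 and 5.93 at 48 h, against 8.40, 8.69 and 8.25 at 24 h, a difference of -1.64 (SE 0.29, adjusted p = 0.014). BUB1B (BUBR1), a subunit of the mitotic checkpoint complex, had 6.04, 6.22 and 5.70 at 48 h, against 7.56, 7.70 and 7.35 at 24 h, a difference of -1.55 (SE 0.17, adjusted p = 0.000252). The 6 arrays of BUB1B formed a pair of tight groups, whereas those of BUB1 were spread widely at 48 h. Smaller falls were those of PLK4 (-1.43), which starts centriole duplication, MYBL2 (B-MYB, -1.23), an activator of mitotic genes, TPX2 (-0.94), which activates Aurora A on the spindle, and the checkpoint kinase CHEK1 (-0.93). BIRC5 (survivin), a subunit of the chromosomal passenger complex, fell by 1.38 on its brighter probe set, but its second probe set differed by 0.07 (adjusted p = 0.957), and averaging both ended the call. The list's count was 7 without replicate 2 of 24 h, and 9 to 11 with each other array of the 2 times left out.

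Members that had settled near their 24 h level included CKS1B and ESPL1. CKS1B, a small subunit of cyclin-dependent kinase complexes, averaged 9.01 ± 0.33 at 48 h and 8.85 ± 0.11 at 24 h (SD, n = 3 each), far under its 0 h mean of 10.77. ESPL1 (separase), which cuts cohesin, averaged 4.34 ± 0.23 at 48 h and 4.64 ± 0.40 at 24 h (SD, n = 3 each). These levels lay near the array medians (4.05 to 4.25), where a further fall can be understated.

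Kinesins, spindle and cytokinesis genes showed the lowest list median of the 35 lists, -0.96. All 29 measured members were lower at 48 h, 19 of them with arrays that did not overlap (6.08% of all genes were lower without overlap). Of the 29, 11 fell past the test (37.9%, against 0.331% of all genes). The list mean was 5.83, 5.99 and 5.46 at 48 h, against 6.79, 6.96 and 6.46 at 24 h. DLGAP5 (HURP), which stabilises the microtubules that reach kinetochores, had 5.79, 5.49 and 5.28 at 48 h, against 7.69, 7.80 and 7.42 at 24 h. It fell by 2.12 (SE 0.26, adjusted p = 0.000488), with replicate 3 lowest at both times. KIF14, a kinesin of the midbody, had 4.85, 5.01 and 4.07 at 48 h, against 6.48, 7.03 and 6.51 at 24 h, a difference of -2.03 (SE 0.29, adjusted p = 0.00227).

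Further falls lay along the same structures. ASPM, at spindle poles, had 5.64, 6.12 and 4.36 at 48 h, against 7.09, 7.39 and 6.60 at 24 h, a difference of -1.66 (SE 0.33, adjusted p = 0.0314). KIF20A, a kinesin needed for cytokinesis, had 4.53, 4.92 and 4.002 at 48 h, against 6.23, 6.34 and 5.51 at 24 h, a difference of -1.54 (SE 0.32, adjusted p = 0.043). In both genes replicate 3 was lowest at 48 h and at 24 h. Smaller falls came from the spindle proteins SPAG5 (-1.31), TACC3 (-1.17) and NUSAP1 (-0.89), the motors KIF4A (-1.26) and KIF23 (-0.91), and the cytokinesis regulators CIT (-1.02) and ECT2 (-0.96). Without replicate 2 of 24 h or replicate 1 of 48 h only 3 members of the list were called, without replicate 1 of 24 h 4, and without replicate 2 or replicate 3 of 48 h 6 each. The list median stayed between -1.09 and -0.84 under each setting tried. STMN1, which destabilises microtubules, averaged 8.24 ± 0.36 at 48 h and 8.34 ± 0.22 at 24 h, and KIF22 averaged 4.86 ± 0.04 at 48 h and 4.90 ± 0.16 at 24 h (SD, n = 3 each), both within 2-fold at the 95% level.

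Centromere, kinetochore, condensin and cohesin genes gave 6 falls among 41 measured members (14.6%, against 0.331% of all genes), with a median of -0.79. CENPW, a histone-fold protein of the inner kinetochore, had 4.995, 4.56 and 3.86 at 48 h, against 6.06, 6.29 and 6.59 at 24 h. The difference was -1.84 (SE 0.29, adjusted p = 0.00534), and the values of 48 h were spread over more than 1 unit. SGO1 (shugoshin), which protects cohesin at centromeres, had 6.27, 5.33 and 5.30 at 48 h, against 7.20, 7.29 and 7.10 at 24 h, a difference of -1.56 (SE 0.25, adjusted p = 0.00602). Its 24 h arrays were nearly equal, and replicate 1 was the highest at 48 h.

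Condensin compacts mitotic chromosomes, and 4 of its subunits fell. The differences were -1.37 and -1.19 for NCAPG and NCAPH, of condensin I, -1.41 for NCAPG2, of condensin II, and -0.84 for SMC2, the ATPase shared by both (limma adjusted p = 0.0134, 0.0086, 0.000488 and 0.0122). NCAPG2 had 4.73, 5.25 and 4.86 at 48 h, against 6.08, 6.61 and 6.39 at 24 h. The count of this list was 4 without replicate 2 of 24 h, 15 with array weights and 0 when only the 6 arrays were fitted. CENPQ, CENPL and SKA1, also of the kinetochore, were settled within 2-fold, with differences of -0.21, -0.33 and -0.56.

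Genes of DNA replication and S phase had 4 falls among 42 members (9.52%, against 0.331% of all genes) and a median of -0.62. In all, 39 of 42 were lower at 48 h (92.9%, against 44.9% of all genes), and 25 were lower with arrays that did not overlap (6.08% of all genes were). MCM10 and CDC45 act where the replicative helicase is switched on, and RFC3 and RFC5 load the sliding clamp. MCM10 had 4.67, 4.96 and 4.92 at 48 h, against 6.18, 6.46 and 6.21 at 24 h, a difference of -1.43 (SE 0.26, adjusted p = 0.0152). The differences of CDC45, RFC3 and RFC5 were -1.24, -1.27 and -0.86. Without replicate 2 of 24 h 0 members of the list were called, without replicate 1 of 24 h or of 48 h 1 each, and the list median stayed at or below -0.50 in every setting tried.

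RRM1, the large subunit of ribonucleotide reductase, was the 1 of 22 nucleotide synthesis genes that fell (4.55%, against 0.331% of all genes). It had 6.80, 7.13 and 7.21 at 48 h, against 8.29, 8.53 and 8.11 at 24 h, a difference of -1.26 (SE 0.15, adjusted p = 0.000459), and the 2 groups did not come near each other. The median of that list was -0.35, the smallest loss among the 6 lists, and -0.18 without replicate 1 of 48 h. FANCI, which is loaded on DNA crosslinks with FANCD2, was the 1 of 21 homologous recombination and Fanconi genes that fell (4.76%, against 0.331% of all genes). It had 4.77, 5.41 and 5.60 at 48 h, against 6.68, 7.08 and 6.89 at 24 h, a difference of -1.63 (SE 0.19, adjusted p = 0.000459). The helicase-polymerase POLQ differed by -1.01 without passing (adjusted p = 0.0755).

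Taken as 1 group, the 6 lists held 194 measured genes, of which 179 were lower at 48 h (92.3%, against 44.9% of all genes). A share this high was not theirs alone, as 27 of 28 proteasome subunits were lower too. Of the 194 genes, 35 fell past the test (18%, against 0.143% of the 18223 genes outside the lists). The median of the 194 was -0.67, against 0.03 for the genes outside. The lists were drawn up with earlier results of these data known, so these shares describe the group and are no independent evidence. The mean over the 194 genes was 5.74, 5.90 and 5.62 at 48 h, against 6.47, 6.57 and 6.31 at 24 h. The count of 35 was 21 once replicate 1 of 48 h was dropped, and 22 and 16 once replicate 1 or 2 of 24 h was dropped, with 7 left when only the 6 arrays were fitted and 53 under array weights.

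**Figure D2:**
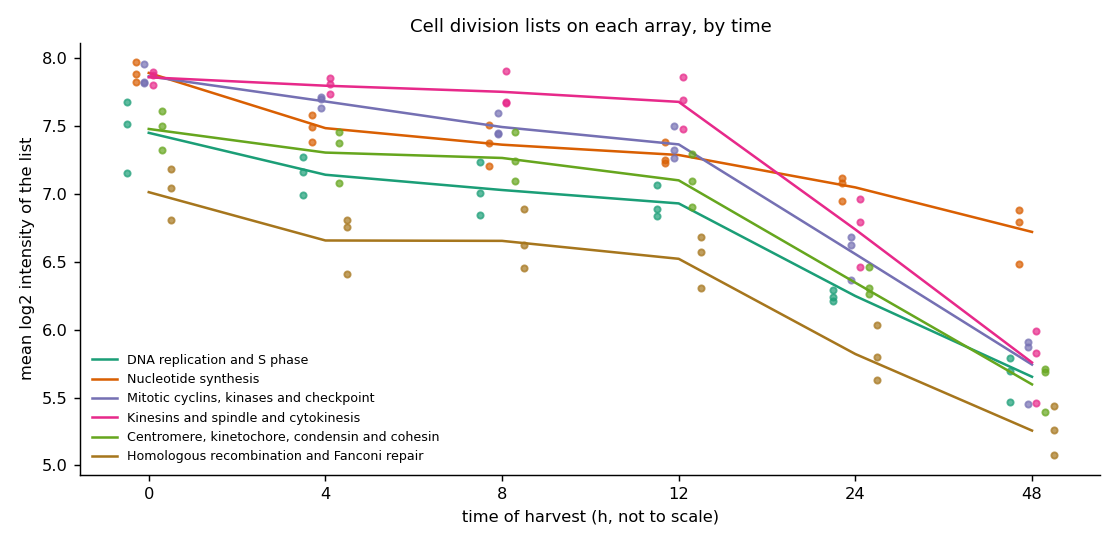
Mean log2 intensity of the members of each of the 6 division lists (y axis) on every array of the time course (points) with the mean of 3 arrays joined by lines, by time of harvest in hours (x axis, evenly spaced and not to scale). Each line drops more from 12 h to 48 h than from 4 h to 12 h, the nucleotide synthesis line least after 12 h, and the kinesin list mean is 5.83, 5.99 and 5.46 at 48 h, against 6.79, 6.96 and 6.46 at 24 h.

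The fall was spread over several intervals. For the kinesin, spindle and cytokinesis list the median difference was -0.09 at 12 h against 0 h, -0.94 at 24 h against 12 h and -0.96 at 48 h against 24 h. For the mitotic cyclins and kinases these medians were -0.55, -0.82 and -0.74, and for the centromere list -0.45, -0.83 and -0.79. DNA replication had -0.50, -0.70 and -0.62, and nucleotide synthesis -0.45, -0.18 and -0.35. At 12 h against 0 h, 0 of 29 kinesin-list members were called and 11 of 42 replication genes fell (763 of 18417 genes, 4.14%, fell in that comparison). Neighbouring intervals share arrays (24 h ends one and starts the next), so only each interval's own values are given.

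The interval from 0 h to 12 h shares no array with that from 24 h to 48 h, and the 2 differences were compared gene by gene with a contrast added after the data were seen. The late difference was lower than the early one in 482 genes (2.62%) and higher in 259 (1.41%) at an adjusted p under 0.05. The genes that fell late were chosen by a difference that is part of this contrast, so their values in it are a description, with no test. CCNB1, at mean levels of 7.93, 7.79, 6.93 and 4.57 at 0, 12, 24 and 48 h, had a late minus early difference of -2.22. DLGAP5, at 8.87, 8.66, 7.64 and 5.52, had -1.91. BIRC5, at 8.41, 7.57, 5.89 and 4.51, had -0.55, with a lower mean at each later time.

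Outside the division lists 26 genes fell, and each of those not given elsewhere is named here so that all are accounted for, a choice made after their values were seen. Several take part in division without being on a list. MKI67 (Ki-67), the proliferation marker that coats mitotic chromosomes, had 6.65, 6.82 and 6.64 at 48 h, against 8.46, 8.30 and 7.71 at 24 h, a difference of -1.46 (SE 0.20, adjusted p = 0.00133). TOP2A, the topoisomerase that untangles sister chromatids, had 8.15, 8.35 and 7.998 at 48 h, against 9.31, 9.44 and 9.02 at 24 h, a difference of -1.09 (SE 0.16, adjusted p = 0.00266). Both genes kept their highest array of 48 h under their lowest of 24 h.

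ARHGAP11A (-1.54), a GTPase-activating protein, PRR11 (-1.53), MTBP (-1.35), the formin DIAPH3 (-1.33), DEPDC1B (-1.33), MTFR2 (-1.18), CDCA2 (-1.16), which targets a phosphatase to chromatin, and ERCC6L (-1.01), a helicase of the chromatin threads between separating chromosomes, fell as well. MTBP, a partner of Treslin in replication origin firing, had 3.69, 3.67 and 3.48 at 48 h, against 5.01, 4.94 and 4.95 at 24 h. PRR11 had 6.01, 6.16 and 5.87 at 48 h, against 7.57, 7.74 and 7.31 at 24 h. CCNB1, DLGAP5, AURKA, BUB1B, PRR11 and MTBP were the 6 falls called under each of the 15 alternatives, and 18 further falls lost their call when only the 6 arrays were fitted and nowhere else.

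JCHAIN, which joins immunoglobulin into polymers, was the largest fall outside the lists of division. It was the 1 of 19 plasma cell and secretory genes that changed (0.402% of all genes did). It had 7.53, 7.25 and 9.14 at 48 h, against 9.33, 9.52 and 9.87 at 24 h, a difference of -1.60 (SE 0.31, adjusted p = 0.0314). Replicate 3 of 48 h lay nearer to the 24 h arrays than to the other two of 48 h, and the call was lost when replicate 1 or replicate 2 of 48 h or any 1 array of 24 h was left out. The other 18 genes of that list had no call, and SLAMF7, a receptor of plasma cells, differed by 1.04 (adjusted p = 0.31).

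The remaining falls belong to no list of division. SLC18B1, a polyamine transporter, had 4.25, 4.49 and 5.05 at 48 h, against 6.06, 5.79 and 5.83 at 24 h, a difference of -1.29 (adjusted p = 0.0104) to a level still above its 0 h mean of 3.65. CTSV (cathepsin V) had 3.29, 3.49 and 3.40 at 48 h, against 4.46, 4.73 and 4.56 at 24 h, and its 48 h mean lay at the 0 h mean of 3.42. TESPA1 (-1.12), ARHGEF3 (-1.09), the lysosomal acetyltransferase HGSNAT (-0.79), HPCAL4 (-0.75), ECD (-1.01), the helicase DHX29 (-0.84) and ANKMY2 (-0.95) also had 24 h means above their 0 h means. GPD1L (-1.11), ARHGEF6 (-1.08), SAAL1 (-0.99), the cytochrome oxidase assembly factor COX11 (-0.86), the phosphatase MTMR2 (-0.85) and CCNI (-0.85) completed the 61. ANKMY2, HGSNAT, HPCAL4 and DHX29 lost their calls under 9 to 12 of 15 alternatives.

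**Figure D3:**
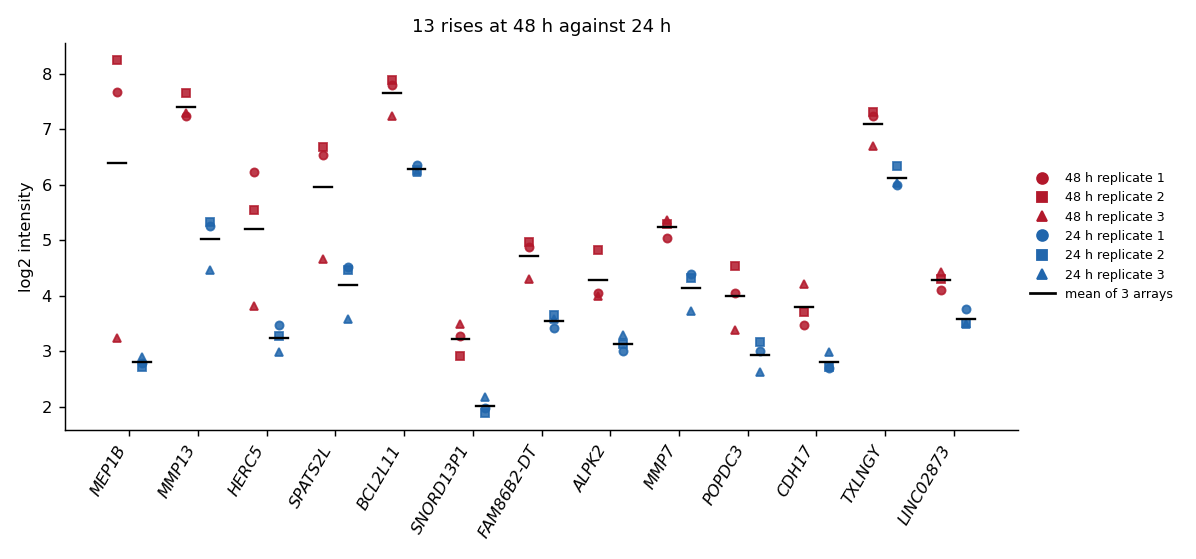
Log2 intensity (y axis) of the 13 genes that rose (x axis), in the arrays of 48 h (red) and 24 h (blue), with a marker shape per replicate and a bar at the mean of 3 arrays. MMP13 rises on all 3 arrays alike (7.23, 7.64 and 7.30 at 48 h), whereas in MEP1B, HERC5 and SPATS2L the array of replicate 3 of 48 h lies far below the other two.

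The 13 rises formed no single group. MMP13, a collagenase, had 7.23, 7.64 and 7.30 at 48 h, against 5.25, 5.32 and 4.46 at 24 h. It was 5.2-fold higher at 48 h, a difference of 2.38 (SE 0.19, adjusted p = 6.5e-06), and the 3 arrays of 48 h were close to each other. Its mean was 2.80 at 0 h and 2.75 at 12 h, near background, so the gene appeared between 12 h and 24 h and rose again. It was the 1 rise called under each of the 15 alternatives. MMP7 (matrilysin), another secreted metalloproteinase, had 5.04, 5.30 and 5.37 at 48 h, against 4.39, 4.32 and 3.72 at 24 h, a difference of 1.09 (SE 0.19, adjusted p = 0.0124). MMP7 was the 1 of 39 adhesion and matrix genes that changed (0.402% of all genes did).

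BCL2L11 (BIM), which binds and neutralises BCL2 family survival proteins, had 7.80, 7.88 and 7.24 at 48 h, against 6.36, 6.26 and 6.23 at 24 h. It rose 2.56-fold, by 1.36 (SE 0.20, adjusted p = 0.00266), to above its 0 h mean of 6.87. It was the 1 of 28 BCL2 family and caspase genes that changed (0.402% of all genes did). BCL2, the survival protein itself, averaged 7.82 ± 0.63 at 48 h and 6.47 ± 0.89 at 24 h (SD, n = 3 each), a difference of 1.35 that did not pass (adjusted p = 0.2). The list median was 0.05.

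HERC5, the ligase that attaches ISG15 to proteins, had 6.23, 5.54 and 3.82 at 48 h, against 3.47, 3.27 and 2.99 at 24 h. It rose by 1.95 (SE 0.39, adjusted p = 0.0314), with replicate 3 of 48 h less than 1 unit above its own 24 h value. SPATS2L had 6.53, 6.68 and 4.65 at 48 h, against 4.51, 4.46 and 3.58 at 24 h, a difference of 1.77 (SE 0.36, adjusted p = 0.0404). MEP1B, the metalloprotease meprin beta, had 7.66, 8.24 and 3.25 at 48 h, against 2.78, 2.71 and 2.90 at 24 h, a difference of 3.59 (SE 0.76, adjusted p = 0.049). Replicates 1 and 2 of MEP1B stood at about 8 and replicate 3 was barely above the 24 h arrays, so its size rests on 2 arrays, and leaving out replicate 1 or 2 of 48 h ended its call, as did leaving out any 1 array of 24 h. The same holds for HERC5 and SPATS2L.

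ALPK2, an atypical kinase, rose by 1.15, the cadherin CDH17 by 0.997 and POPDC3 by 1.07. The noncoding genes SNORD13P1, FAM86B2-DT and LINC02873 rose by 1.21, 1.16 and 0.69. Of these, LINC02873 lost its call under 11 of 15 alternatives, FAM86B2-DT under 9 of 15 and POPDC3 under 9 of 14. Any 1 array left out ended the call of LINC02873, and any but replicate 3 of 48 h those of FAM86B2-DT and POPDC3. TXLNGY, which lost its call under 6 of 15, differed by 0.97, and its second probe set by 0.47 (adjusted p = 0.576). MEP1B, SNORD13P1, POPDC3 and CDH17 had 24 h means under the highest lower quartile of the 24 h arrays (3.09), close to background, where an intensity can understate a change.

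Interferon-stimulated genes, which cells switch on in answer to type I interferon, had mostly risen before this interval. Of 43 measured, 33 were higher at 24 h than at 0 h (6.74% of all genes were), and 0 of those 33 rose again at 48 h against 24 h. The 33 were chosen on 24 h arrays that the later difference also uses, which works against a further rise. That 0 is therefore a description only. HERC5 was the 1 member that rose at 48 h against 24 h (0.0706% of all genes did), and it differed by 0.35 at 24 h against 0 h (adjusted p = 0.699). The list median was 0.28, against 0.03 over all genes, and 35 of 43 members were above 0, as were 10154 of all 18417 genes. Without replicate 3 of 48 h 5 members rose, namely HERC5, GBP4, IFI27, HERC6 and DDX60, while 87 of all 18417 genes rose in place of 13. That array had the lowest list mean of its time, so leaving it out favours rises in this list. Without replicate 3 of 24 h the list median was -0.03. GBP4, a guanylate-binding protein, had 6.83, 6.35 and 2.98 at 48 h, against 4.62, 4.05 and 2.68 at 24 h. IFI27 had 6.38, 6.98 and 5.30 at 48 h, against 5.20, 5.05 and 4.22 at 24 h (adjusted p = 0.0634 with all arrays), and these members are named to spell out that count.

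**Figure D4:**
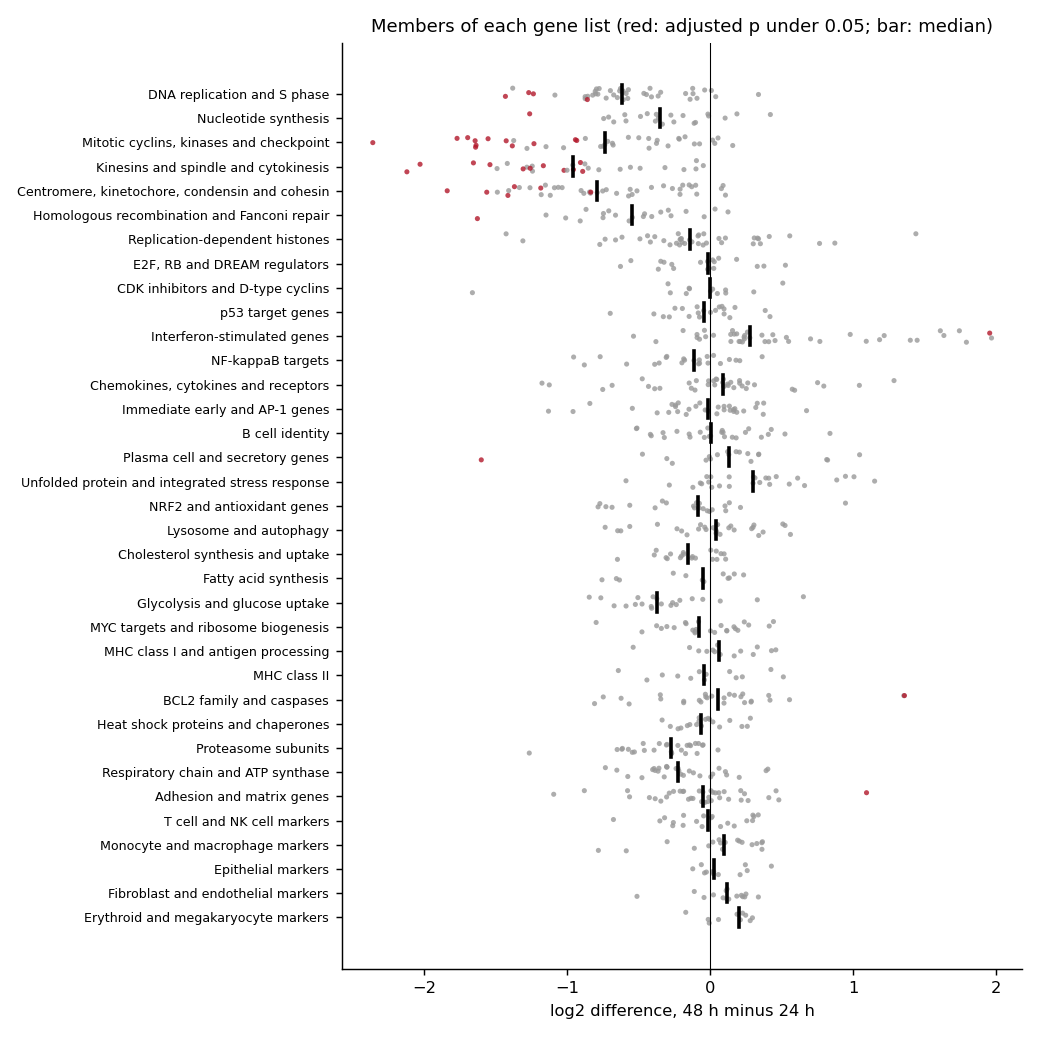
Log2 difference at 48 h minus 24 h (x axis) of each measured member of the 35 gene lists (rows), with members past the test in red and a bar at the median. The 6 division lists at the top lie to the left, with medians from -0.96 to -0.35, and the medians of the other lists lie between -0.37 and 0.30, with 4 red points, HERC5, BCL2L11 and MMP7 on the right and JCHAIN on the left.

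Other lists of the cell cycle had medians above those of the division lists. They held 0 calls, and with 0.402% of all genes changed a count of 0 is near that share. Of 41 replication-dependent histone genes 0 changed, with a median (between -0.34 and 0.07 with each array left out) of -0.14, and H3C11 differed most in the downward direction, by -1.43 with an SD of 1.25 at 24 h (adjusted p = 0.22). Of 19 E2F, RB and DREAM regulators 0 changed, with a median of -0.02. MYBL2 (B-MYB), an activator of mitotic genes that did fall, was counted in the mitotic list, so this 0 depends on where the list was drawn. E2F1, an activator of S phase genes, averaged 5.23 ± 0.11 at 48 h and 5.04 ± 0.33 at 24 h, and E2F8, a repressor of the family, averaged 5.32 ± 0.19 at 48 h and 5.95 ± 0.36 at 24 h (SD, n = 3 each). Among 13 CDK inhibitors and D-type cyclins, CDKN3, a phosphatase whose transcript peaks in mitosis, differed by -1.66 without passing (adjusted p = 0.0597). CDKN1A (p21) averaged 5.83 ± 0.09 at 48 h and 5.97 ± 0.71 at 24 h (SD, n = 3 each), above its 0 h mean of 4.67. Of 21 p53 target genes 0 changed.

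The signalling lists held 0 calls, as did those of metabolism and of protein folding and turnover. With 0.402% of all genes changed, counts of 0 are near that share. The medians were -0.11 for 23 NF-kappaB targets, 0.09 for 38 chemokines, cytokines and receptors, -0.02 for 34 immediate early and AP-1 genes and 0.003 for 27 B cell identity genes. TNF averaged 6.55 ± 0.17 at 48 h and 7.50 ± 0.59 at 24 h and the early growth response factor EGR1 9.53 ± 0.14 at 48 h and 10.37 ± 0.92 at 24 h (SD, n = 3 each), differences of -0.96 and -0.84 that did not pass (adjusted p = 0.262 and 0.406). Proteasome subunits were lower in 27 of 28 (96.4%, against 44.9% of all genes) with a median of -0.27. Their mean on replicate 1 of 48 h was 8.00, against 8.50 and 8.59 on replicates 2 and 3. The median of 21 glycolysis and glucose uptake genes was -0.37 and that of 27 unfolded protein and stress response genes 0.30. These medians moved with single arrays. Without replicate 1 of 48 h they were -0.10 for the proteasome and -0.17 for glycolysis, and without replicate 3 of 48 h that of glycolysis was -0.59 with 2 falls. Without replicate 3 of 24 h the median was 0.17 for the unfolded protein list and -0.41 for NF-kappaB targets, against 0.06 for the NF-kappaB list without replicate 1 of 24 h. PSAT1, of serine synthesis, differed by 1.15 (adjusted p = 0.0935) and the endoplasmic reticulum chaperone HSPA5 by 0.61 (adjusted p = 0.109).

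Most shifts from 0 h were kept to within 2-fold after 24 h. A gene was taken as shifted when the mean of its 24 h and 48 h arrays differed from 0 h, and as settled when the 95% interval of its difference at 48 h against 24 h lay within 1 log2 unit of 0, a 2-fold change either way. Of 18417 genes 3138 were shifted (17%), 1571 up and 1567 down. The share shifted up was 50.1%, and 35.4% once each array was centred on its own median. Of the 3138 shifted genes 2392 were settled (76.2%), 1226 of those shifted up (78%) and 1166 of those shifted down (74.4%), against an interval within that range in 89.4% of all genes. A further 682 could not be decided, because their interval reached past 1 unit. Among the 1571 shifted up 7 rose further and 5 fell, and among the 1567 shifted down 52 fell further and 0 rose. Both quantities use the 24 h and 48 h arrays, though their estimates are uncorrelated by construction in this balanced design. With a margin of 1.5-fold in place of 2-fold, 963 were settled.

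**Figure D5:**
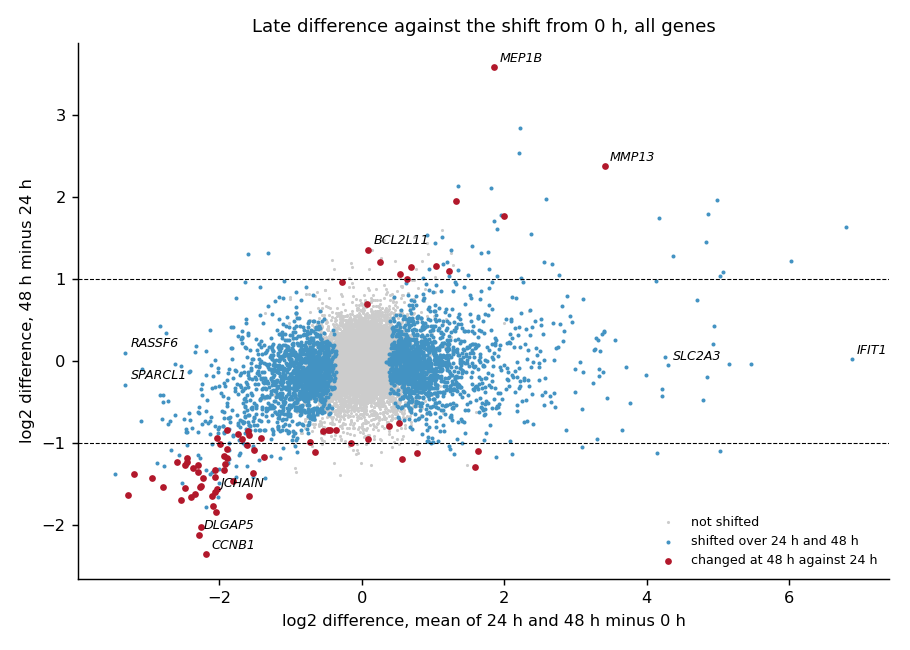
Log2 difference at 48 h minus 24 h (y axis) against the log2 difference of the mean of 24 h and 48 h minus 0 h (x axis) for 18417 genes, with shifted genes in blue, genes changed at 48 h against 24 h in red and dashed lines at the margin of 1 unit. The red points lie mostly at the lower left, below -1 on both axes, while IFIT1 (6.88 on the x axis) and RASSF6 (-3.33) lie far out and close to 0 on the y axis.

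The settled genes with the largest upward shift came from several groups. IFIT1, which encodes an antiviral RNA-binding protein, averaged 10.12 ± 0.49 at 48 h and 10.10 ± 1.04 at 24 h (SD, n = 3 each), against 3.24 at 0 h. Its difference at 48 h against 24 h was 0.02, with a 95% interval of -0.83 to 0.87. IFIT3 differed by -0.03 (-0.78 to 0.71) and OAS1, which makes the activator of RNase L, by 0.14 (-0.63 to 0.92). By the interval used here these 3 genes were settled. That interval takes its spread from the arrays of all times. The SD of each gene was largest at 24 h, at 1.04 for IFIT1, 0.83 for IFIT3 and 0.81 for OAS1, with replicate 3 lowest. An interval from the 24 h and 48 h arrays alone is not given for them. A level kept to within 2-fold therefore rests on the pooled spread.

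SLC2A3, the glucose transporter GLUT3, averaged 10.75 ± 0.05 at 48 h and 10.80 ± 0.51 at 24 h (SD, n = 3 each), against 6.48 at 0 h. The drug efflux pump ABCB1 averaged 8.03 ± 0.34 at 48 h and 8.11 ± 0.37 at 24 h, and the galectin LGALS1 8.75 ± 0.97 at 48 h and 8.89 ± 0.50 at 24 h. With that spread at 48 h, the settled state of LGALS1 also rests on the pooled spread. The survival gene BCL2A1 averaged 9.78 ± 0.06 at 48 h and 9.65 ± 0.34 at 24 h and was above its 0 h mean of 6.46. CD68 and the nuclear body gene SP110 differed by 0.33 and -0.10, and LPIN1, of lipid synthesis, by -0.27. CD68, a lysosomal protein, was the 1 of 18 measured monocyte and macrophage markers that was shifted (17% of all genes were).

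Among the largest settled losses, RASSF6 averaged 4.41 ± 0.90 at 48 h and 4.31 ± 0.19 at 24 h (SD, n = 3 each), against 7.68 at 0 h. With its wide spread at 48 h, its settled state rests on the spread pooled over all times. SPARCL1, a secreted matrix protein, averaged 5.46 ± 0.34 at 48 h and 5.75 ± 0.12 at 24 h, against 8.93 at 0 h, and CADPS 3.69 ± 0.26 at 48 h and 3.79 ± 0.15 at 24 h, against 6.83. RASSF6 and CADPS lay near or below the array medians (4.05 to 4.25) at both times, where an intensity can understate a further fall. The B cell genes CD84, GCSAM and CLECL1 differed by -0.13, -0.34 and 0.12 between 48 h and 24 h. The other settled losses of the 10 largest were DNA2, OR13A1, RNU11 and GNAL. BTK, the kinase of B cell receptor signalling, averaged 5.50 ± 0.25 at 48 h and 5.65 ± 0.23 at 24 h (SD, n = 3 each), against 7.46 at 0 h, and VPREB3 and IKZF3 were settled too, with differences of 0.15 and 0.08.

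Of the 194 division genes 168 were shifted, each downward (8.51% of all genes were), and of these 48 were settled (28.6%), 35 fell further and 85 could not be decided. Outside the lists 2344 of 2970 shifted genes were settled (78.9%). The share was 18.5% in the kinesin list (5 of 27), 20.6% in the mitotic list (7 of 34), 27% each in the replication and centromere lists (10 of 37 each) and 68.8% for nucleotide synthesis (11 of 16). DNA2, a nuclease-helicase of replication, averaged 5.32 ± 0.21 at 48 h and 5.36 ± 0.25 at 24 h (SD, n = 3 each), against 7.96 at 0 h, and had thus settled at a loss of over 2 units. The nucleotide synthesis genes DUT, CTPS1 and PAICS had settled as well, with differences of -0.28, -0.36 and -0.25. The E2F, RB and DREAM regulators were mostly settled, 11 of 13 shifted genes, and in the interferon list 13 of 40 were, with 26 undecided.

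Early changes were set against late ones. Of the 720 genes higher at 12 h than at 0 h (3.91% of genes), 4 fell at 48 h against 24 h (0.556%) and 0 rose, and these 4 make up 6.56% of the 61 falls. Of the 763 lower at 12 h (4.14% of genes), 8 fell late (1.05%), or 13.1% of the falls, and 1 rose. Over all genes 0.331% fell late. The remaining 49 falls and 12 rises came from the 16934 genes with no call at 12 h. The median late difference was -0.14 for the genes up at 12 h and -0.08 for those down at 12 h, against 0.03 over all genes. Leaving out replicate 1 of 12 h gave 888 genes called at 12 h, leaving out replicate 2 of 0 h gave 977, in place of 1483. At 12 h against 0 h, centring each array gave a median of -0.07 over all genes in place of 0.05, and a share of higher genes among those called of 30.4% in place of 48.6%.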

How the data were processed

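Log2 intensities per probe set were deposited by the authors for 18 arrays. The base was read from the range of the values (1.34 to 12.93), and the software and normalization are not given in the sources used here. The platform's gene table named 1 gene for 19460 of 33297 probe sets, several for 1754, and 12083 are not named here. By gene ID 19429 matched the RefSeq gene table, and 0 symbols were updated. Of the 18417 genes, 769 had several probe sets, and no filter on dim genes was applied. Limma 3.58.1 in R 4.3.3 fitted time as the only term to 18 arrays (12 residual and 5.58 prior degrees of freedom). Two-sided p-values were adjusted over all genes within a comparison, and SE is that of the model. The script was tested on simulated data. The labels give no batch, and arrays give no counts. The number of arrays and the spread between them limit the precision. Where nothing in the labels tells separate cultures, p-values measure the spread between arrays.

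The members and the 35 lists (932 genes, 858 measured) were chosen with earlier results of these data known. Genes were named by a rule: the 15 largest falls and the 15 largest rises past the test with arrays that did not overlap, up to 5 members past the test per list or else the 2 of smallest p, the 10 largest settled shifts each way and up to 3 per list, and promoters of the 5 division-list falls of largest difference with a RefSeq window. Not every gene the rule took is printed. Alternatives were quantile normalization, centring, leaving out the dimmest 25% of genes, other uses of several probe sets, array weights, an intensity trend with a robust prior, the replicate number as a block, the 6 arrays alone, each array left out, and a margin of 1.5-fold. Added after seeing the data were all probe sets tested, the division count in each setting, and the late minus early contrast. Replicate numbers were not taken to pair the arrays.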

Additional observations from a re-analysis of the deposited data

Results flagged for a closer look

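Of 13837 probe sets that name no gene or several genes, which were kept out of the comparison, 1 was called at 48 h against 24 h when all 33297 probe sets were tested together (0.00723%, against 0.185% of the probe sets that name 1 gene). This probe set names no gene. It read 4.56, 4.88 and 4.88 at 48 h, against 5.94, 6.16 and 6.45 at 24 h, a log2 difference of -1.412 (limma adjusted p = 0.0242), and its 0 h mean was 7.81. What it measures was not tested.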

How the results depend on the processing

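None of the 74 called genes changed direction under any alternative. Their arrays of 48 h and 24 h did not overlap, so leaving out or reweighting arrays could not have reversed a sign, and this adds no support. The 74 calls at 48 h against 24 h (13 higher, 61 lower) became 206 with array weights (54 higher, 152 lower), 10 in the fit of the 6 arrays alone (1 higher, 9 lower) and 36 with all probe sets tested. Leaving out each array gave 35 to 258 genes, 4 to 87 higher and 28 to 171 lower, the highest counts without replicate 3 of 48 h. The higher genes numbered 7 without the dimmest 25% of genes. With the replicate number as a block 104 genes were called, 22 of them higher. Same-numbered arrays of the 2 times correlated at 0.00434, 0.237 and 0.303 in their deviations from the group means, not every array correlated best with its own number, and the numbers are not taken to pair the arrays. Division genes that fell numbered 53 with array weights, 7 in the fit of the 6 arrays and 16 to 34 with each array left out. The 252 genes called at 24 h against 12 h became 1099 with array weights and 105 to 335 with each array left out, and the 1483 at 12 h against 0 h became 888 to 1229. Settled genes numbered 963 with a margin of 1.5-fold. Quantile normalization kept 57 of the 74 calls, centring each array 71, array weights 73 and the fit of the 6 arrays 10. Centring gave a share of higher genes of 43% at 24 h against 0 h, in place of 54%. The causes were not tested. Genes near background limit what can be seen, and 6 of the 74 lay in the dimmest 25%.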
